A study of Schizosaccharomyces pombe with 6 samples.

Results

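Mitochondrial ribosomal protein genes of fission yeast (Schizosaccharomyces pombe) are described here, taken as every counted nuclear gene whose symbol begins with mrpl or mrps followed by a digit. They number 39 of the 7269 counted features: 31 mrpl genes for the large subunit and 8 mrps genes for the small subunit. Bulk poly(A) RNA-seq compared 2 genotypes, with 3 libraries each that the labels call biological replicates. The first genotype, called the mutant here, combines the sad1.2 allele with loss of csi1 (sad1.2 csi1Δ). The other is wt. Both were haploid vegetative cells from asynchronous log-phase cultures of 30 mL in rich medium at 30 °C, collected at an optical density of 0.5. The purpose given for the series is to see whether loss of centromere clustering alters gene expression. Nothing in the labels says whether either strain is a single clone or which mating type it has.

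Mitochondria keep a ribosome of their own that makes the few proteins encoded in mitochondrial DNA, mainly core subunits of the respiratory chain and the ATP synthase. Nearly all of its proteins are encoded in the nucleus, translated in the cytosol and imported. In the annotated product names, a leading u marks proteins shared by ribosomes of all domains of life, b those shared with bacteria, and m those found in mitochondria but not in bacteria. The members comprise 16 universal, 5 bacterial-type and 10 mitochondria-specific proteins, and 8 whose product name gives no such class.

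Libraries held between 19074531 and 19951875 counts. The deleted gene csi1 stood at 9.36, 10.2 and 3.22 CPM (counts over library size in 1e+06 counts, with sizes scaled by TMM, a correction for RNA composition) in the mutant, against 64.1, 65.3 and 63.7 CPM in wt. Counts at csi1 were low in all 3 mutant libraries but did not reach 0. The sad1 gene, mutated and not deleted, stood at 153 ± 6.81 CPM in the mutant and 81.8 ± 1.66 CPM in wt (SD, n = 3 each). As for cell state, the summed level of 5 genes of growing cells was 30635 to 41834 CPM in the mutant and 41739 to 47540 CPM in wt. The 9 meiotic markers, of which spn5, spo6 and mde2 were at 0 in every library, summed to 68.1 to 133 CPM in the mutant and 28.7 to 43.2 CPM in wt. The 7 mating markers, with mfm3 at 0, summed to 114 to 139 CPM in the mutant and 71.9 to 104 CPM in wt. The 7 stress markers, with fbp1 at 0, summed to 5223 to 5624 CPM in the mutant and 3782 to 5270 CPM in wt. Non-coding RNA features took 0.569%, 0.448% and 0.409% of the counts in mutant replicates 1, 2 and 3, and 0.332%, 0.331% and 0.328% in the wt replicates. The part of these differences in the results on the members was not tested. In bulk samples, less RNA per cell cannot be told apart from fewer cells that express a gene.

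Of the 39 members, 35 had enough counts to be tested and 4 had no count in any library. The 4 were mrpl22 (uL22m, a protein that lines the exit tunnel of ribosomes), mrpl4 (uL29m, which sits beside the tunnel exit), mrpl15 (mL57) and mrps17 (uS17m, which binds the small-subunit rRNA). A count of 0 allows at most between 0.134 and 0.171 CPM per library (3 counts over the scaled library size), for counting error only. All 4 lie under features of the opposite strand. Of their exon bases, 100% were shared with other counted features for mrpl15 and mrpl4, 92.9% for mrpl22 and 87.7% for mrps17. The partner of mrpl15 is sid4, a scaffold gene of the septation initiation network, and that of mrps17 is rib4, a gene of riboflavin synthesis. The zinc finger gene SPCC1739.01 lies across mrpl22, and the non-coding RNA SPNCRNA.1139 lies across mrpl4. On the same counts the mrpl22 partner stood at 229 CPM in the mutant and 202 CPM in wt, while SPNCRNA.1139 stood at 2.85 and 3.09 CPM.

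Across the genome, among protein-coding genes with no same-strand overlap, 282 of the 308 whose exons lay wholly under opposite-strand features had no count in any library (91.6%). Among the 2182 with no such overlap, 39 had none (1.79%), and among the 673 with over 50% but less than all of their exons covered, 131 had none (19.5%). A member at 0 in these files is therefore not read here as a gene without mRNA.

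**Figure D1:**
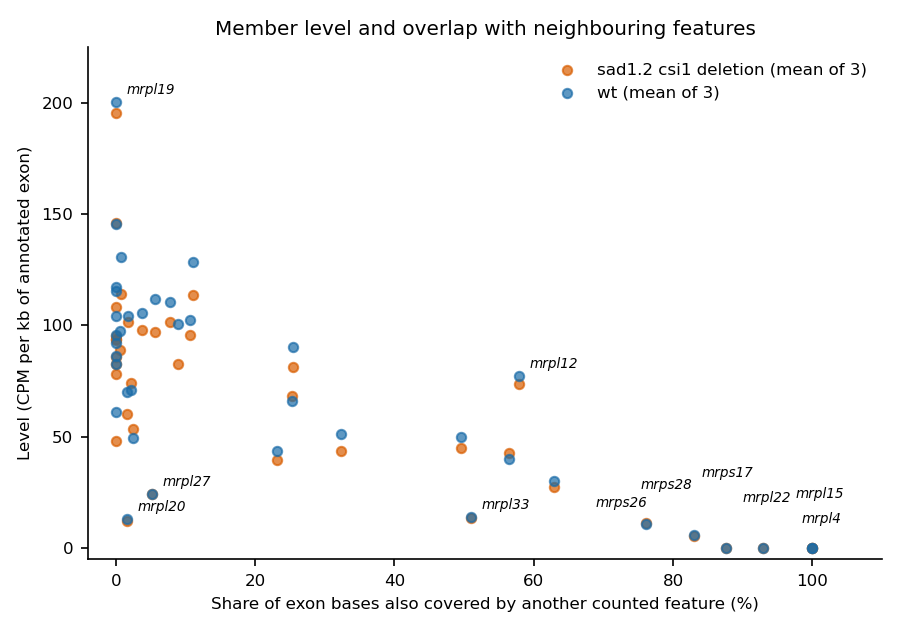
Level of each of the 39 members (vertical axis, mean CPM per kb of annotated exon over 3 libraries; orange mutant, blue wt) against the share of its exon bases that another counted feature also covers (horizontal axis, percent). The 4 members at 0 lie between 87.7% and 100%, while mrpl20 and mrpl27 are low with 1.65% and 5.16% covered.

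Levels per kb of annotated exon spread widely. The highest member was mrpl19 (uL11m, at the base of the stalk that contacts translation factors), with 195 ± 14.5 CPM per kb in the mutant and 200.2 ± 3.93 CPM per kb in wt (SD, n = 3 each). Next came mrps16, at 146 ± 3.33 CPM per kb in the mutant and 145 ± 2.24 CPM per kb in wt. Then mrpl25 (mL59) and mrpl32 (bL32m) stood at 114 ± 18.5 and 114 ± 27.9 CPM per kb in the mutant, against 131 ± 15.5 and 129 ± 19.7 CPM per kb in wt. These 2 did not differ from each other beyond their SD in either genotype, whereas mrpl19 stood above mrps16 in every library. The 35 tested members had a median of 81.1 CPM per kb in the mutant and 86.2 CPM per kb in wt. For scale, the 113 tested cytosolic ribosomal protein genes had medians of 2054 CPM per kb in the mutant and 2646 CPM per kb in wt, and all tested features 40.1 and 39.7 CPM per kb.

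The lowest members with counts were mrps28 (uS15m) at 5.21 ± 0.326 CPM per kb in the mutant and 5.72 ± 0.557 CPM per kb in wt, then mrps26 at 11.2 ± 0.964 and 10.9 ± 1.13 CPM per kb. Both lie largely under other features, over 83.1% and 76.0% of their exon bases. The gene mrpl33 (uL30m), with 51.0% shared, stood at 13.5 ± 0.944 CPM per kb in the mutant and 13.8 ± 3.41 CPM per kb in wt. With all counts of a gene divided by the bases it shares with no feature, mrps28 reached 33.8 CPM per kb and mrps26 45.5 CPM per kb in wt. Where in a gene its counts lay was not known. By contrast mrpl20 (mL58) stood at 12.3 ± 0.759 CPM per kb in the mutant and 12.8 ± 0.887 CPM per kb in wt with 1.65% of its exons shared, and mrpl27 at 24.3 ± 3.77 and 24.1 ± 5.78 CPM per kb with 5.16% shared. In those 2 genes a low level stands without a large overlap. Division by unshared bases gave another order. In wt mrpl12 (bL12m, the stalk protein that ribosomes carry in several copies) stood at 77.0 CPM per kb of exon. The same counts divided by its unshared bases gave 183 CPM per kb, second to mrpl19 by that measure.

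**Figure D2:**
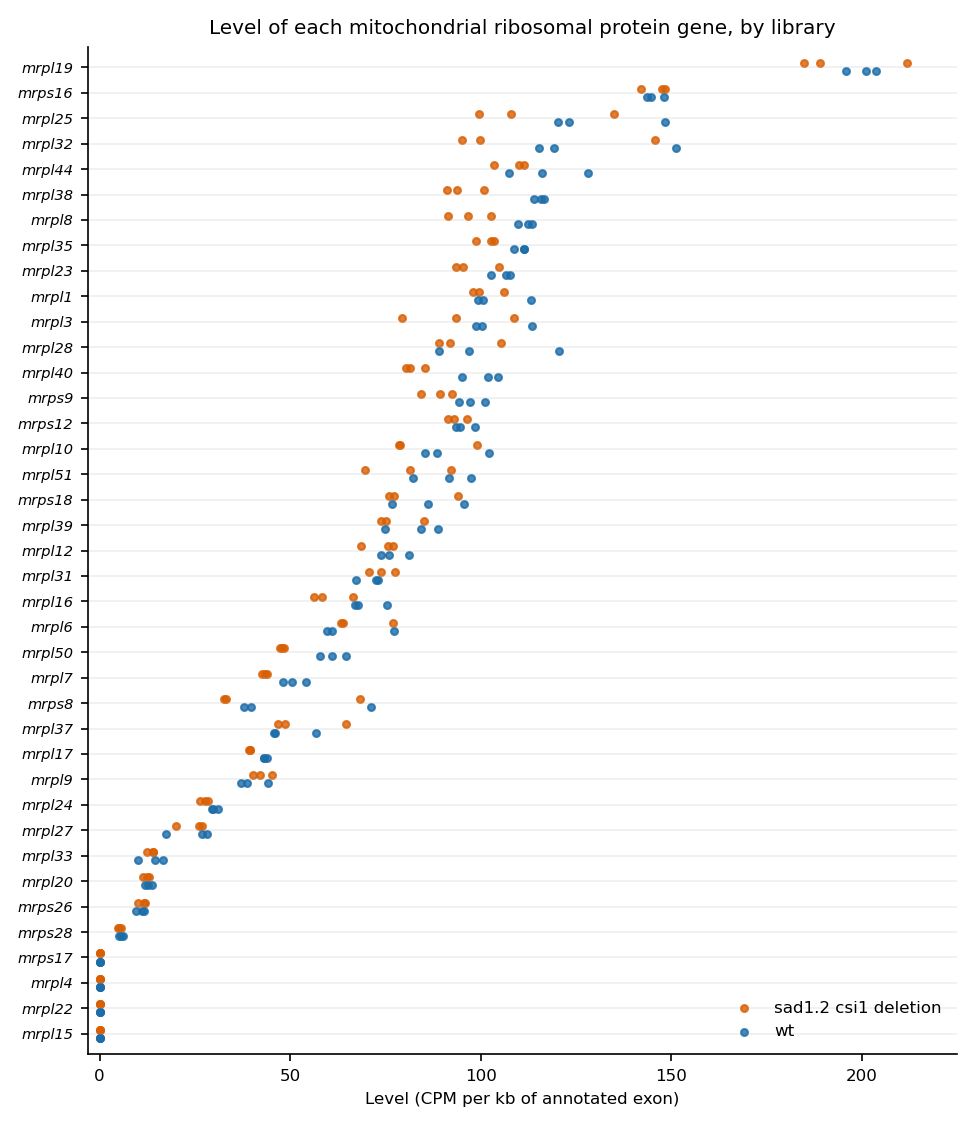
Level of each member in each library, in CPM per kb of annotated exon (horizontal axis), with mutant libraries in orange above wt libraries in blue. Members are ordered by their wt mean, from 0 for mrpl15, mrpl22, mrpl4 and mrps17 to 200.2 CPM per kb for mrpl19, and the genotypes overlap in 25 of the 35 tested members.

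No member passed the test between genotypes. With edgeR's quasi-likelihood test on 4941 features, 0 of the 35 tested members were called at an adjusted p under 0.05, in either direction. Over all tested features 2.41% were called, 2.29% higher and 0.121% lower. At an unadjusted p under 0.05, 5 members were lower and 0 higher, where 8.12% of all tested features were lower. The lowest adjusted p of a member was 0.0694. DESeq2 called 3 members lower, mrpl50, mrpl40 and mrpl38 (2.63% of all features were lower by DESeq2), and limma voom called 0. In the authors' deposited table, members with an adjusted p under 0.05 numbered 2, mrpl50 at 0.00621 and mrpl40 at 0.0193, both lower in the mutant, as were 2.54% of the features with an adjusted p there.

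Small negative values prevailed with TMM scaling. Of the 35 tested members 28 had a negative log2 fold change (mutant over wt) and 7 a positive one, with a median of −0.11, quartiles of −0.15 and −0.03 and a range from −0.35 to 0.11. The median over all 4941 tested features was 0.00. The SE of a member's log2 fold change ran from 0.0669 to 0.364, with a median of 0.0953. In 20 of the 35 members the value lay within 1 SE of 0, and in 29 within 2 SE. The negative values rest on the scaling. With library size alone, and no composition factor, 15 members were negative and the median was 0.01, while the median of all features moved to 0.13. Relative to the median of all features, the members' median was −0.11 with both scalings. As a share of raw counts the members took 0.276%, 0.258% and 0.270% of the mutant libraries and 0.270%, 0.268% and 0.258% of the wt libraries, and these shares overlap. Among the 1152 protein-coding genes between 51.4 and 105 CPM, the range between the quartiles of the members' own levels, the median log2 fold change was −0.01. The 17 members in that range had a median of −0.11.

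**Figure D3:**
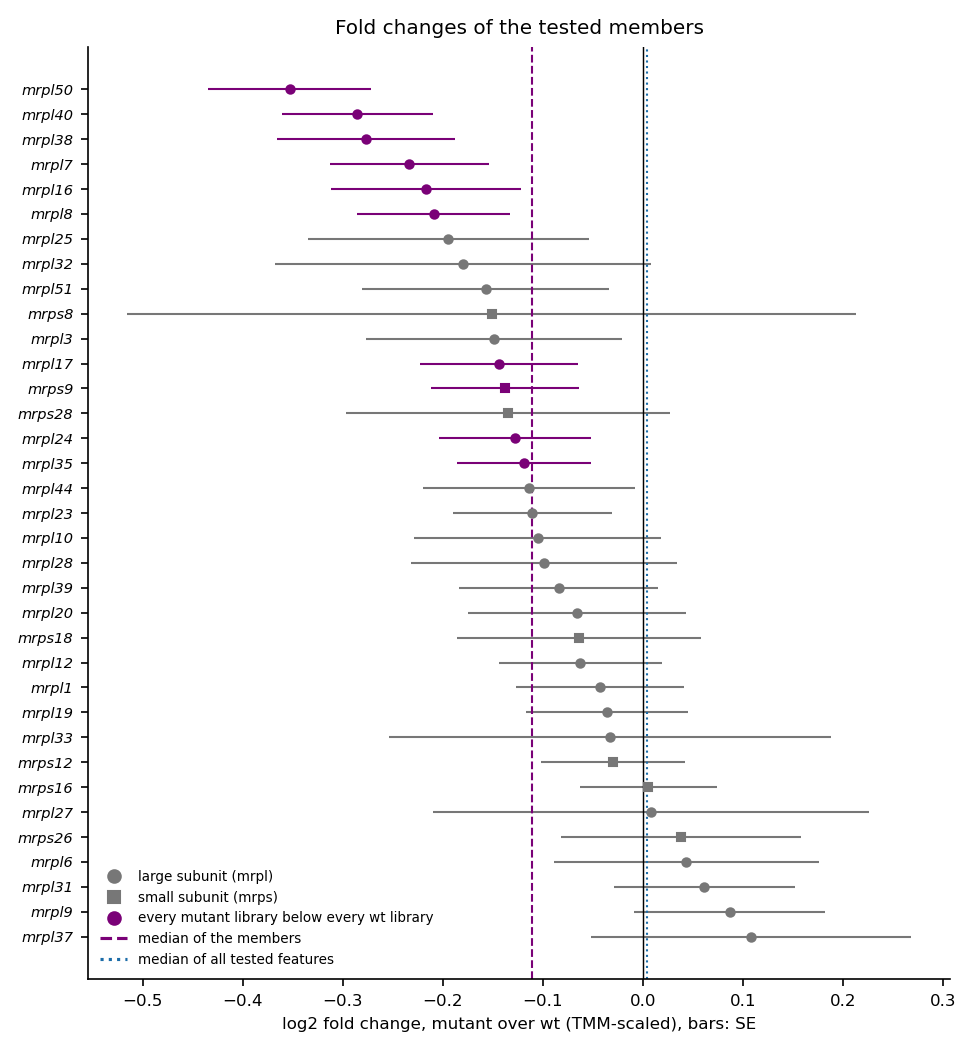
log2 fold change of each tested member, mutant over wt with TMM scaling (horizontal axis; bars are SE), with large-subunit genes as circles and small-subunit genes as squares. Purple marks the 10 members whose mutant libraries all lie below all wt libraries; the dashed line is the members' median of −0.11 and the dotted line the median of all features at 0.00, and with library size alone 15 in place of 28 members are negative.

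In 10 members every mutant library lay below every wt library, and in 0 every mutant library lay above. Over all tested features this held for 13.8% below and 16.7% above. The 10 were mrpl50, mrpl40, mrpl38, mrpl7, mrpl16, mrpl8, mrpl17, mrpl24, mrpl35 and mrps9. With library size alone, mrpl16 was the 1 member below, and mrpl9 and mrps26 were 2 above, where 5.38% of all tested features lay below and 24.5% above.

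The member of smallest p was mrpl50, annotated only as protein Mrpl50. It stood at 54.0, 54.7 and 53.5 CPM in the mutant and at 72.9, 65.4 and 68.9 CPM in wt. The mutant libraries lay close together and below all 3 wt libraries. That is a log2 fold change of −0.35 with an SE of 0.0816, and the edgeR adjusted p was 0.0694. None of its annotated exon bases is shared with another counted feature.

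The next was mrpl40 (uL24m, a protein that binds early in large-subunit assembly in bacteria), at 93.5, 92.1 and 97.9 CPM in the mutant and 119.8, 117 and 109 CPM in wt. The groups did not overlap. The change on the log2 scale was −0.29 ± 0.0756 (SE), at an edgeR adjusted p of 0.0972. For mrpl38, annotated as a putative large-subunit protein, the mutant libraries had 41.5, 44.6 and 40.3 CPM and the wt libraries 50.4, 51.2 and 51.6 CPM. Here the wt libraries were the tighter group, and the change on the log2 scale was −0.28 ± 0.0891 (SE), at an edgeR adjusted p of 0.141.

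Of the others with separate groups, mrpl7 (uL5m, in the central protuberance of the large subunit) stood at 62.0, 63.2 and 64.1 CPM in the mutant and 78.9, 70.3 and 73.4 CPM in wt. All 3 mutant libraries were lower, with a log2 difference of −0.23 ± 0.0796 (SE), at an edgeR adjusted p of 0.154. For mrpl8 (bL17m) the mutant had 93.4, 99.3 and 88.4 CPM and wt 109.8, 109 and 106 CPM, a log2 difference of −0.21 ± 0.0766 (SE) at an edgeR adjusted p of 0.172. The groups of mrpl16 (uL16m, beside the sites where tRNAs bind) came close, with 90.6, 94.2 and 107 CPM in the mutant and 108, 122 and 109 CPM in wt. Its log2 difference was −0.22 ± 0.0953 (SE), at an edgeR adjusted p of 0.233. In mrpl17 (mL46) the groups were narrow and the gap small, with 51.4, 51.4 and 51.2 CPM in the mutant and 57.4, 56.4 and 56.4 CPM in wt. The log2 fold changes of mrpl17, mrps9, mrpl24 and mrpl35 lay between −0.14 and −0.12.

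**Figure D4:**
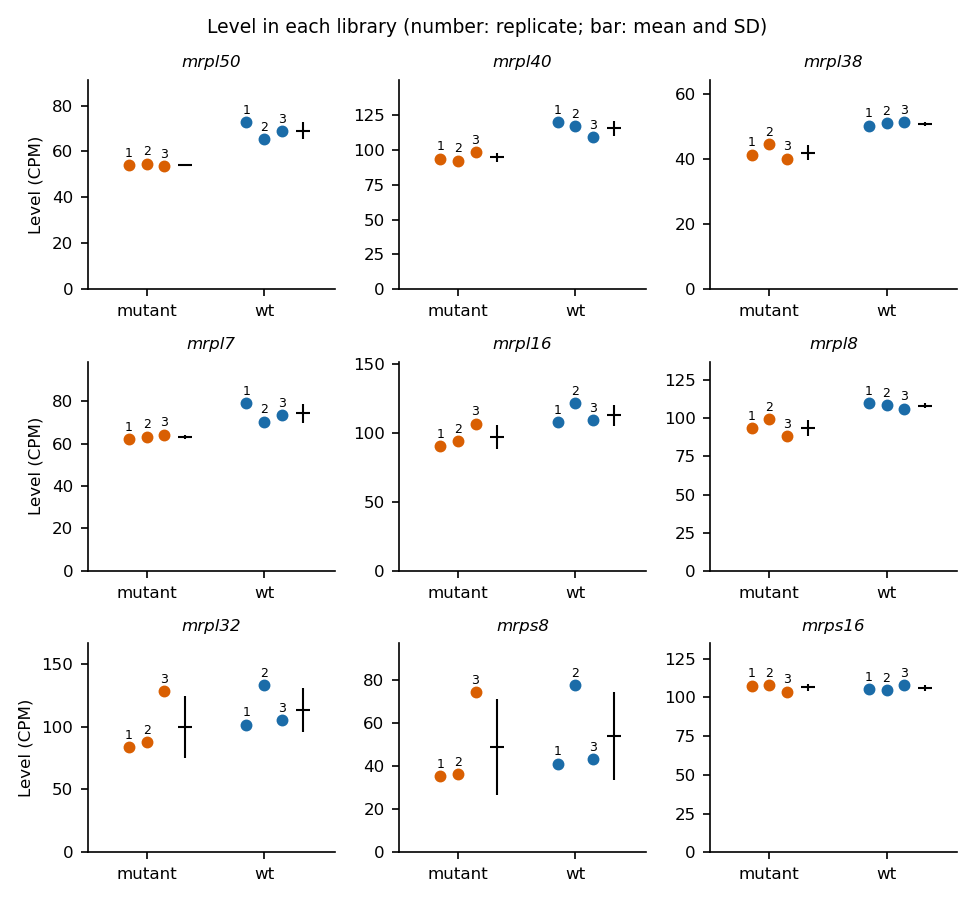
Level in CPM (vertical axes, from 0) of 9 members in each library; orange points are the mutant and blue points wt, numbers are replicates, and black bars are mean and SD (n = 3). The groups of mrpl50, mrpl40, mrpl38, mrpl7, mrpl16 and mrpl8 do not overlap, those of mrps16 overlap, and mutant replicate 3 and wt replicate 2 stand highest in mrps8 and mrpl32.

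At the other end, all 7 members with positive values lay within 1 SE of 0. The largest value was that of mrpl37 (mL54), with 44.2, 42.7 and 58.8 CPM in the mutant and 41.9, 51.7 and 41.5 CPM in wt. The groups overlap, and the log2 difference was 0.11 ± 0.160 (SE), at an edgeR adjusted p of 0.739. The log2 fold change of mrpl9 (uL3m, near the catalytic centre of ribosomes) was 0.09 (SE 0.0951), that of mrpl31 (mL60) 0.06 (SE 0.0902) and that of mrpl6 (uL6m) 0.04 (SE 0.133). For mrps26, mrpl27 and mrps16 the values were 0.04, 0.01 and 0.01. The most precise near-zero value was that of mrps16, at 108, 108 and 104 CPM in the mutant and 106, 105 and 108 CPM in wt (SE 0.0683). With library size alone these 7 members had values from 0.13 to 0.23.

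Libraries of 1 genotype differed most in mrps8 (uS8m, which binds the small-subunit rRNA). It stood at 35.4, 36.1 and 74.2 CPM in the mutant and at 41.1, 77.6 and 43.2 CPM in wt. Mutant replicate 3 was 2.06 times the next mutant library and wt replicate 2 was 1.79 times the next wt library, so that each genotype held 1 high library. The log2 difference of −0.15 had the largest SE among the members, 0.364, and an edgeR adjusted p of 0.848. Ratios of at least 1.79 for both of these libraries were found in 16 of the 4941 tested features (0.324%). That cutoff and the libraries were taken from mrps8 itself, so its place among the 16 was fixed in advance. It was the 1 member among them. Of its exon bases 49.6% lie under SPNCRNA.1131, which had 0 counts in every library.

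A weaker form of the same pattern ran through other members. In 16 of the 35 members mutant replicate 3 was the highest mutant library and wt replicate 2 the highest wt library, or 45.7%, against 31.1% of all tested features. The 16 include mrps8, from which these libraries were taken, and also mrpl32 and mrpl25. Members are not independent of each other, and the difference between the shares was not tested. The level of mrpl32, whose Saccharomyces cerevisiae counterpart is matured by the m-AAA protease, was 83.8, 87.8 and 128 CPM in the mutant and 101, 133 and 105 CPM in wt. Again 1 library of each genotype stood apart, with a log2 difference of −0.18 ± 0.188 (SE) at an edgeR adjusted p of 0.625. The levels of mrpl25 were 77.0, 83.4 and 104 CPM in the mutant and 95.2, 115 and 93.1 CPM in wt, a log2 difference of −0.19 ± 0.141 (SE) at an edgeR adjusted p of 0.461. Over all tested genes, deviations from the genotype mean correlated between mutant replicate 3 and wt replicate 2 (r = 0.66 across genes, which are not independent replicates). That was the highest value of any pair between the genotypes, and the other pairs ran from −0.55 to 0.49. Deviations from a shared mean constrain each other, so the pairs are not independent. Without both libraries edgeR called 5 members lower, mrpl50, mrpl40, mrpl7, mrpl32 and mrpl16, at log2 fold changes of −0.39, −0.30, −0.29, −0.27 and −0.24 with edgeR adjusted p between 0.0136 and 0.0367. In that comparison 6.17% of all tested features were called lower, and calls in both directions rose from 119 to 1025. The libraries left out were those that stood highest in mrps8 and mrpl32. Leaving out libraries that stand apart narrows the spread within each genotype. The adjusted p-values there are therefore not read as support for lower members.

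Medians by subunit and by class of protein lay close together with TMM scaling. The 28 tested mrpl genes had a median log2 fold change of −0.11, with 23 negative, and the 7 tested mrps genes one of −0.06, with 5 negative; the difference was not tested. Medians were −0.11 for 13 universal, −0.13 for 5 bacterial-type and −0.11 for 9 mitochondria-specific members, and −0.09 for the 8 others. The 22 members with under 10% of their exons shared had a median of −0.11, with 18 negative. Chromosomes I, II and III hold 11, 18 and 10 of the members. A pair of members, mrpl28 (mL40) and mrps12 (uS12m, at the decoding centre), are divergent neighbours. They stood at 63.9, 66.0 and 75.6 CPM and at 77.8, 82.1 and 79.1 CPM in the mutant, against 64.0, 86.6 and 69.5 CPM and 79.6, 83.9 and 80.6 CPM in wt, with log2 fold changes of −0.10 (SE 0.133) and −0.03 (SE 0.0720).

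Few genes that work with the mitochondrial ribosome were called. Counts at an unadjusted p under 0.05 take both directions here, and 1116 of all 4941 tested features had such a p. A further 39 genes are annotated as mitochondrial ribosomal proteins under other symbols (such as rsm10, mrp7 and img1). Of these 31 were tested and 8 had no count. None was called by edgeR (3 at an unadjusted p under 0.05), 23 were negative, and the median log2 fold change was −0.13 with TMM scaling and −0.01 with library size alone. Among 12 genes of mitochondrial translation factors and membrane insertion, such as tuf1, tsf1, mef1 and oxa101, 0 were called (1 at an unadjusted p under 0.05) and 6 were negative, with a median of −0.01 (0.11 with library size alone). Of 14 tested genes for mitochondrial RNA synthesis and RNA binding, such as rpo41 and the ppr genes, 0 were called (4 at an unadjusted p under 0.05), with a median of −0.09 (0.03 with library size alone). Of the proteins of the respiratory chain and ATP synthase encoded in the nucleus, some but not all assemble with products of mitochondrial translation. Their 29 tested genes had 0 calls (2 at an unadjusted p under 0.05), 24 negative values and a median of −0.14. With library size alone these 29 had 16 negative values and a median of −0.01.

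In the list of mitochondrial import and chaperone genes 1 of 25 tested genes was called lower and 0 higher (9 at an unadjusted p under 0.05). Over all 4941 tested features, 0.121% were called lower and 2.29% higher, and 1116 had such an unadjusted p in either direction. The gene mge1, a nucleotide exchange factor of the matrix Hsp70, stood at 210.1, 233 and 229.8 CPM in the mutant and 304, 303 and 289 CPM in wt. The groups do not overlap, and the gene fell by 0.41 on the log2 scale (SE 0.0762), at an edgeR adjusted p of 0.0466. The call ended with any 1 library left out, at edgeR adjusted p between 0.0588 and 0.206, with library size alone (0.0830), with replicate number as a block (0.167), with at least 5 CPM in 3 libraries (0.0535), with protein-coding genes only (0.0657) and with limma voom (0.0521). It held with DESeq2 (adjusted p = 0.000138). With edgeR it held with DESeq2 size factors (adjusted p = 0.0446) and with no expression filter (0.0465). It also held without wt replicate 2 and mutant replicate 3 together (edgeR adjusted p = 0.0145). The value of mge1 was negative in each of these settings. With TMM scaling on all libraries, no member had a value as far from 0. Without mutant replicate 3, mrps8 was farther from 0, at −0.60 against −0.44 for mge1. The median of that list was −0.10 with TMM scaling and 0.01 with library size alone.

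Cytosolic ribosomal protein genes had values farther below 0 than the members, with both scalings. All 113 tested were negative with a median log2 fold change of −0.33, and with library size alone 112 were negative with a median of −0.21. With TMM scaling, every mutant library lay below every wt library in 68 of them (60.2%), against 13.8% of all tested features. No such count is given here with library size alone. None was called by edgeR (42 at an unadjusted p under 0.05, against 1116 of all 4941 tested features). The difference between these genes and the members was not tested. Genes of cytosolic ribosome assembly were taken by symbol alone (utp, nop, rrp, nog, mak, imp, noc or nip and a digit). Their products were not checked, so genes of other functions may be among them. The 64 tested had a median of −0.16 and 0 calls (10 at an unadjusted p under 0.05), and −0.04 with library size alone.

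By library, the members' median deviation from each gene's mean on the log2 scale was −0.13, −0.07 and 0.03 in mutant replicates 1, 2 and 3, and 0.04, 0.11 and 0.01 in the wt replicates. Mutant replicate 3 thus lay above wt replicate 3. For the cytosolic ribosomal protein genes the mutant libraries had −0.40, −0.04 and −0.06 and the wt libraries 0.05, 0.28 and 0.14, with mutant replicate 1 far below the rest. The symbol-based list of cytosolic ribosome assembly gave −0.21, −0.06 and 0.09 for the mutant libraries and −0.12, 0.40 and −0.05 for the wt libraries. That list was again highest in mutant replicate 3 and wt replicate 2. All of these values use TMM scaling.

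**Figure D5:**
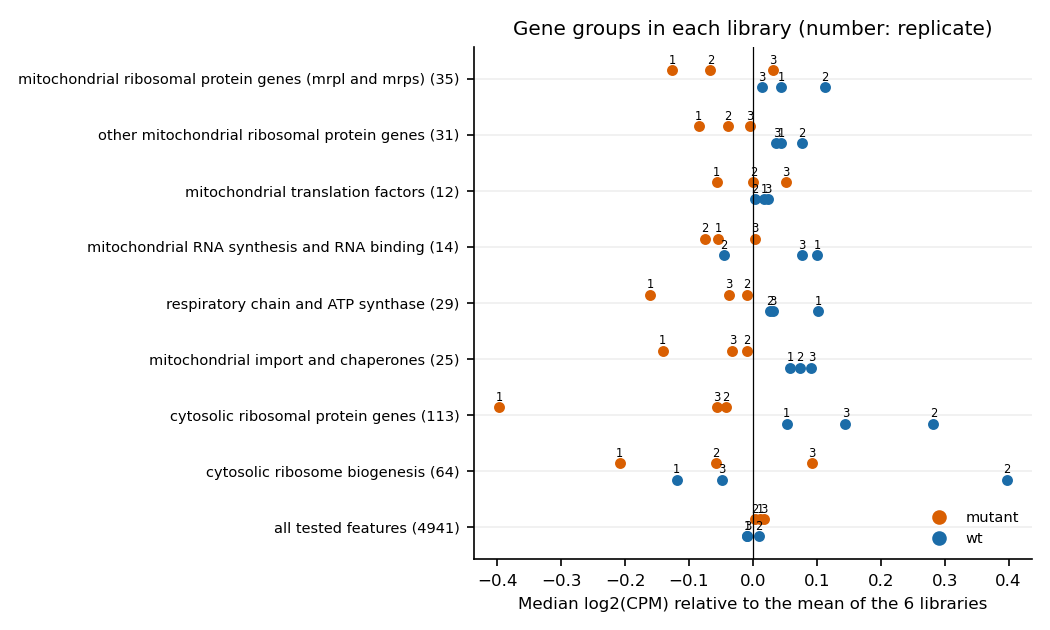
Median over the genes of each group (number tested in brackets) of log2 CPM relative to each gene's mean over the 6 libraries, with TMM scaling (horizontal axis); orange points are mutant libraries and blue points wt libraries, labelled by replicate. The mitochondrial ribosomal protein genes range from −0.13 to 0.11 with the genotypes overlapping (with library size alone their median log2 fold change is 0.01 in place of −0.11), while the cytosolic ribosomal protein genes range from −0.40 to 0.28.

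A neighbour of csi1 has a role in the mitochondrial ribosome. The gene mrm2, whose counterpart in Saccharomyces cerevisiae methylates the large-subunit rRNA of mitochondria, overlaps csi1 on the opposite strand, and 88.2% of its exon bases are shared. It was counted 24, 24 and 9 times in the mutant and 14, 9 and 15 times in wt. At this depth no difference was detectable (log2 difference 0.45 ± 0.430 SE, edgeR adjusted p = 0.592). Whether the csi1 deletion removes bases that mrm2 shares was not tested, so its counts may not be comparable between genotypes. This gene was singled out after its position was seen.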

How the data were processed

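For each library the authors deposited raw counts of reads by annotated transcript, and every test used those counts. HISAT2, HTSeq and DESeq2, with build ASM294v2, appear in the submitters' processing notes. Their versions, the annotation release and the strand setting: not given in the sources used here. The authors also deposited a DESeq2 table with a log2 fold change, p-value and adjusted p-value for each transcript, quoted where named. A further 18 columns of normalized values were not used. Per the labels, 5 µg of total RNA per library was selected with oligo-dT and sequenced paired-end.

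Symbols, products, exon lengths and neighbours came from the RefSeq annotation of ASM294v3, which matched 6846 of the 7269 identifiers (423 did not match). As that build differs from the authors', no coordinates or sequences are given, and the promoter and protein features planned were not analysed here. Shared exon bases were counted on both strands among counted features.

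The test was edgeR 4.0.16 (R 4.3.3, robust quasi-likelihood, TMM, genotype as the only term, filterByExpr with minimum count 10 and minimum total 15). It was run on counts simulated independently for each gene. Deviations that many genes of a library share, as in these libraries, were not simulated, so that check does not cover them. Benjamini-Hochberg adjustment ran over all 4941 tested features, and calls were made at 0.05. DESeq2 1.42.0 and voom of limma 3.58.1 were alternatives. An exact permutation of 3 against 3 libraries cannot give p below 0.1. The members, lists and tests were chosen with earlier results of these data known. Named members are the 8 most negative and 8 most positive, the 4 highest and 4 lowest per kb, the 5 of smallest p and those at 0; others, and all members with separate groups, were named after their values were seen. From the lists, mtl1, pet1, cbp1, rmn1, par1 and tim11 were dropped because of their annotated products. Mitochondrial tRNA ligases, also planned for a list, were not included. No library pair of a genotype agreed within sampling noise (chi-square per degree of freedom of 9.68 or more).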

Additional observations from a re-analysis of the deposited data

How the results depend on the processing

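Every alternative left 0 members called higher. Members called lower numbered 3 with DESeq2 and 5 without wt replicate 2 and mutant replicate 3 together, and 0 with the others, including each library left out in turn. The median log2 fold change of the members was 0.0128 with library size only, with 15 negative members; across single libraries left out it ran from −0.15 to −0.07, with 27 to 30 negative. The same-numbered libraries did not deviate together in every pair (r = 0.44, −0.49 and −0.54 across genes for replicates 1, 2 and 3), so the numbers are not read as pairs; with replicate number as a block the median was −0.11, 28 members were negative, 0 were called, and 0 features in all were called. Members with every mutant library below every wt library, an alternative chosen after seeing the data, numbered 1 with library size only, when 5.38% of all features were below, and 10 to 18 with 1 library left out, when 14.8% to 23.8% were. The highest member count and share were those without mutant replicate 3. Over all features edgeR called 119, against 510 with DESeq2, 36 with protein-coding genes only, 76 with at least 5 CPM in 3 libraries, 82 with limma voom, 0 to 151 with 1 library left out and 1025 without the 2 libraries named above; the cause was not tested. Of 525 single values under alternatives, 43 changed sign and 8 were called. The 3 members with the fewest counts (mrps28, mrpl33 and mrpl27) had SE between 0.162 and 0.221, against a median of 0.0953 over the tested members; what depth contributes was not tested.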
